A study of Ovis aries with 4 samples.

Results

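The potassium channel genes of sheep striatum are described here across nuclei classes and libraries. They were taken as every gene whose symbol in the gene list of the nuclei libraries starts with KCN, which gave 88 of 26478 listed genes. The rule used names only and no measured value. It takes in pore-forming channel subunits, their auxiliary subunits and a regulator, KCNRG. Another 7 KCN symbols of the RefSeq gene table had no identifier of that name in the list and were not analysed here. They were KCNG4, KCNH8, KCNJ10, KCNK13, KCNMB3, KCNQ1 and KCNQ5.

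The study set isolated nuclei against dissociated whole cells as starting material for droplet single-cell RNA sequencing of frozen striatum. All libraries came from sheep (Ovis aries) aged 5 years, with no treatment or genotype given. Sheep 1 and 2 were pooled for replicate 1 of the whole cells and of the nuclei, and sheep 3 and 4 for replicate 2 of both, going by the sample titles, so each group had 2 libraries and single animals within a pool cannot be told apart. The extraction protocol instead words the second pool as animals 2 and 3, so whether the pools share an animal is unclear. Values of replicate 1 are always given before those of replicate 2.

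Potassium channels let potassium leave or enter a cell along its gradient, and so set the resting potential, the shape of the spike and the pace of firing. Most are built from several alpha subunits that form the pore, and many carry beta or calcium-binding partners that alter gating and transport to the membrane. In the striatum, medium spiny neurons are known for a very negative resting potential held by inward rectifiers and for a slow ramp to the first spike shaped by A-type currents. Fast-spiking interneurons are known for Kv3 channels that repolarise the membrane quickly, and glia for channels that buffer extracellular potassium.

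The nuclei libraries held 8815 and 8723 barcodes with 70473292 and 51102420 UMIs (unique molecular identifiers, a count of captured RNA molecules). The whole-cell libraries held 2162 and 32500 barcodes with 1115058 and 19241918 UMIs, of which 989084 and 16729081 fell on 35 mitochondrial identifiers. Between 2 and 87 barcode sequences were shared by any pair of libraries, 29 of them by the nuclei pair. After filters, 15721 nuclei were clustered without the KCN genes into 16 clusters, and 14479 of them fell into 6 classes named from marker genes. The classes were medium spiny neuron-like (1306 and 1278 nuclei), interneuron-like (159 and 211), oligodendrocyte-like (3722 and 3786), oligodendrocyte precursor-like (575 and 686), astrocyte-like (694 and 560) and microglia-like (749 and 753). Each class cluster showed 5 to 10 of the markers fixed for its name, among them PDE10A and FOXP1 in spiny-like, MOG and MAG in oligodendrocyte-like, PDGFRA in precursor-like, AQP4 in astrocyte-like and CSF1R in microglia-like nuclei. The markers MBP and DRD1 had no entry of that name in the gene list and were not used. The thresholds for giving a name were set after the clusters had been seen. Nuclei differed in depth, with medians of 29214 and 16369 UMIs in spiny-like against 1657 and 1388 in microglia-like nuclei.

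The 88 genes together took 971128 and 684650 UMIs in the nuclei, or 1.39% and 1.35% of all UMIs outside the mitochondrial genes. A single gene, KCND2, which encodes a pore subunit of the Kv4 A-type channel, carried 743006 of these UMIs, 44.9% of the total. KCNIP4, a calcium-binding partner of Kv4, followed with 201574 UMIs (12.2%), and the 12 genes with most UMIs together held 88.9%. At the other end, 32 genes had under 100 UMIs and 6 of these (KCNJ15, KCNE4, KCNE5, KCNA7, KCNK17 and KCNJ1) had none. UMIs are not corrected for gene length, and neither the annotation used nor whether intron reads were counted is given in the sources used here. Levels are therefore compared between classes for 1 gene at a time. Shares of a gene or family within the KCN UMIs describe counted UMIs and do not rank the amounts of RNA.

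Neuron-like and precursor-like nuclei had a larger share of UMIs on these genes than the other glia-like classes. The share of all UMIs was 1.80% and 1.76% in spiny-like, 1.45% and 1.90% in interneuron-like, and 1.30% and 1.29% in precursor-like nuclei. It was 0.405% and 0.377% in astrocyte-like, 0.151% and 0.171% in oligodendrocyte-like, and 0.0972% and 0.100% in microglia-like nuclei. Replicates of these last 3 classes did not overlap with any other class. When every nucleus was thinned to 500 UMIs, the mean number of different KCN genes per nucleus was 3.98 and 4.42 in spiny-like, 3.76 and 3.71 in interneuron-like and 3.90 and 3.72 in precursor-like nuclei. It was 1.51 and 1.40 in astrocyte-like, 0.674 and 0.785 in oligodendrocyte-like and 0.463 and 0.456 in microglia-like nuclei, so the same division held at equal depth.

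The make-up of that share differed by class. Kv4 pore subunits supplied 56.5% and 51.3% of KCN UMIs in spiny-like and 38.4% and 39.7% in precursor-like nuclei, against 15.2% and 9.83% in interneuron-like nuclei. KChIP partners led in interneuron-like nuclei with 27.5% and 43.3%. K2P channels, the background or leak family, led in oligodendrocyte-like nuclei with 41.2% and 37.5%, where KCNK1 alone gave 39.5% and 36.1%. Subunits of BK, the large-conductance calcium-activated channel, led in microglia-like nuclei with 43.6% and 40.7%, of which KCNMB4 gave 41.3% and 36.3%. In astrocyte-like nuclei the Kv7 subunits gave 24.4% and 24.4%, the ether-a-go-go family 25.8% and 17.7% and the KChIPs 15.9% and 19.7%. The 7 KCN symbols without an identifier in the list, KCNJ10 and KCNQ5 among them, are not part of these shares.

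**Figure D1:**
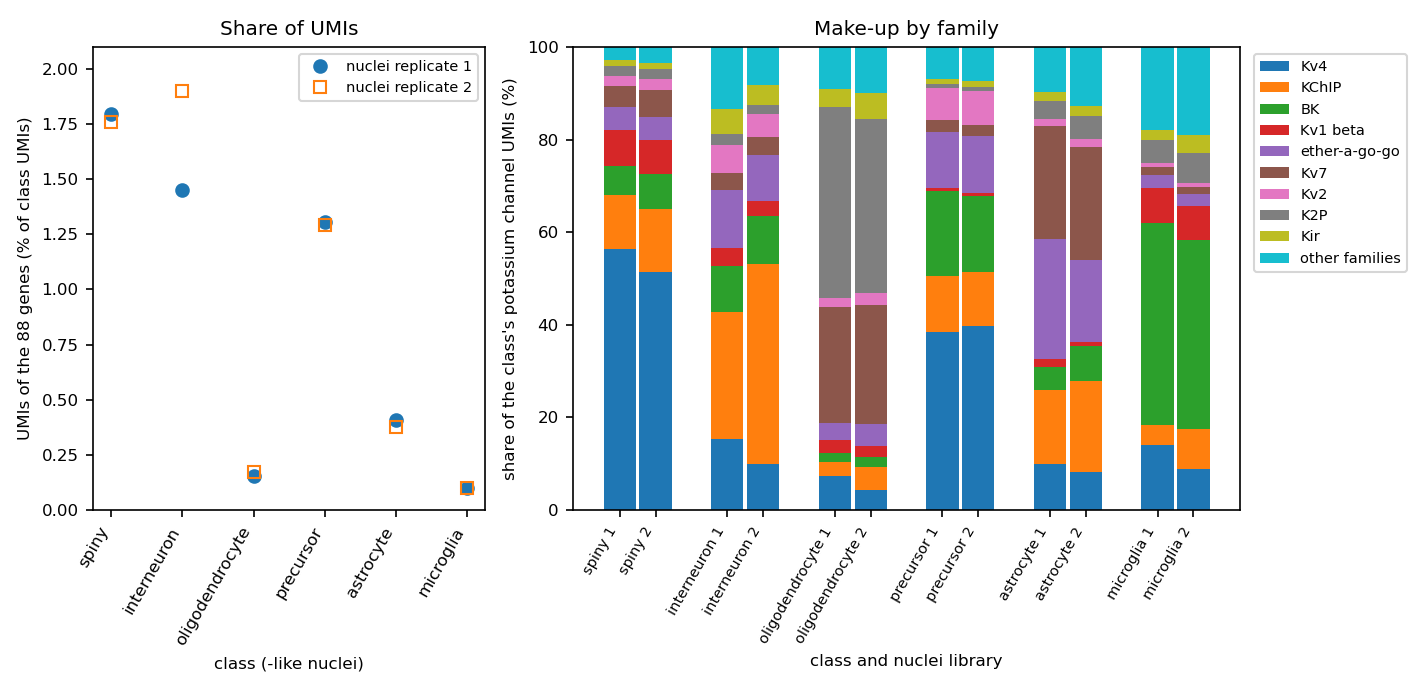
Left, the share of all UMIs that fell on the 88 KCN genes in each nuclei class, with 1 point per library; right, the make-up of those KCN UMIs by channel family in each class and library, in percent. Spiny-like, interneuron-like and precursor-like nuclei lie between 1.29% and 1.90% and the other classes at or under 0.405%; Kv4 fills over 50% of the spiny-like bars and K2P the largest part of the oligodendrocyte-like bars.

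Tests compared UMI sums per class and library by edgeR's quasi-likelihood test over 13009 genes, with the library as a block (n = 2 libraries). A gene was called at an adjusted p under 0.05 and at least 2-fold. Of the 88 genes, 53 passed the filter on low counts, some of them through the class where they were high, so the counts below describe only genes that were detectable somewhere. Against the mean of the other classes, 34 KCN genes were called higher in spiny-like nuclei, where 19% of all genes were called higher, and 6 lower (15.2% of all genes, and 34.2% in either direction). In interneuron-like nuclei 41 were higher (17.7% of all genes) and 3 lower (8.39%, and 26.1% in either direction). The median log2 fold change of the tested KCN genes was 1.76 in spiny-like and 2.41 in interneuron-like nuclei, beside medians of -0.04 and 0.01 over all genes.

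In the glia-like classes the counts ran differently. Oligodendrocyte-like nuclei had 7 KCN genes higher (14.3% of all genes) and 32 lower (17.8%, 32.1% either way), with a median of -2.37 beside 0.03 over all genes. Microglia-like nuclei had 6 higher (17%) and 36 lower (23.8%, 40.8% either way), with a median of -2.99 beside -0.10. Astrocyte-like nuclei had 12 higher (16.8%) and 16 lower (7.55%, 24.3% either way), with a median of -0.89 beside 0.00. Precursor-like nuclei had 22 higher (14.7%) and 8 lower (7.07%, 21.7% either way), and their median of 0.71, beside 0.01 over all genes, made them the only glia-like class with a KCN median above 0. Both neuron-like classes against the 4 glia-like classes gave 41 KCN genes higher (20% of all genes) and 3 lower (14.2%, 34.2% either way). Those 3 were KCNK5 (log2 -4.05 ± 0.72), KCNRG (-3.11 ± 0.24) and KCNJ13 (-1.08 ± 0.24), the last of which fell under the 2-fold limit, at -0.98, with no filter on low counts.

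Among the 36 KCN genes with at least 1000 UMIs, the highest mean level lay in interneuron-like nuclei for 12, spiny-like for 11, precursor-like for 6, oligodendrocyte-like for 3, astrocyte-like for 3 and microglia-like for 1. Both libraries of that class lay above both libraries of every other class for 10, 8, 5, 2, 0 and 1 of them in the same order. No astrocyte-like maximum was thus separate from the next class among these genes. With the limit at 100 UMIs, astrocyte-like nuclei were highest for 7 of 56 genes and separate for 4.

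**Figure D2:**
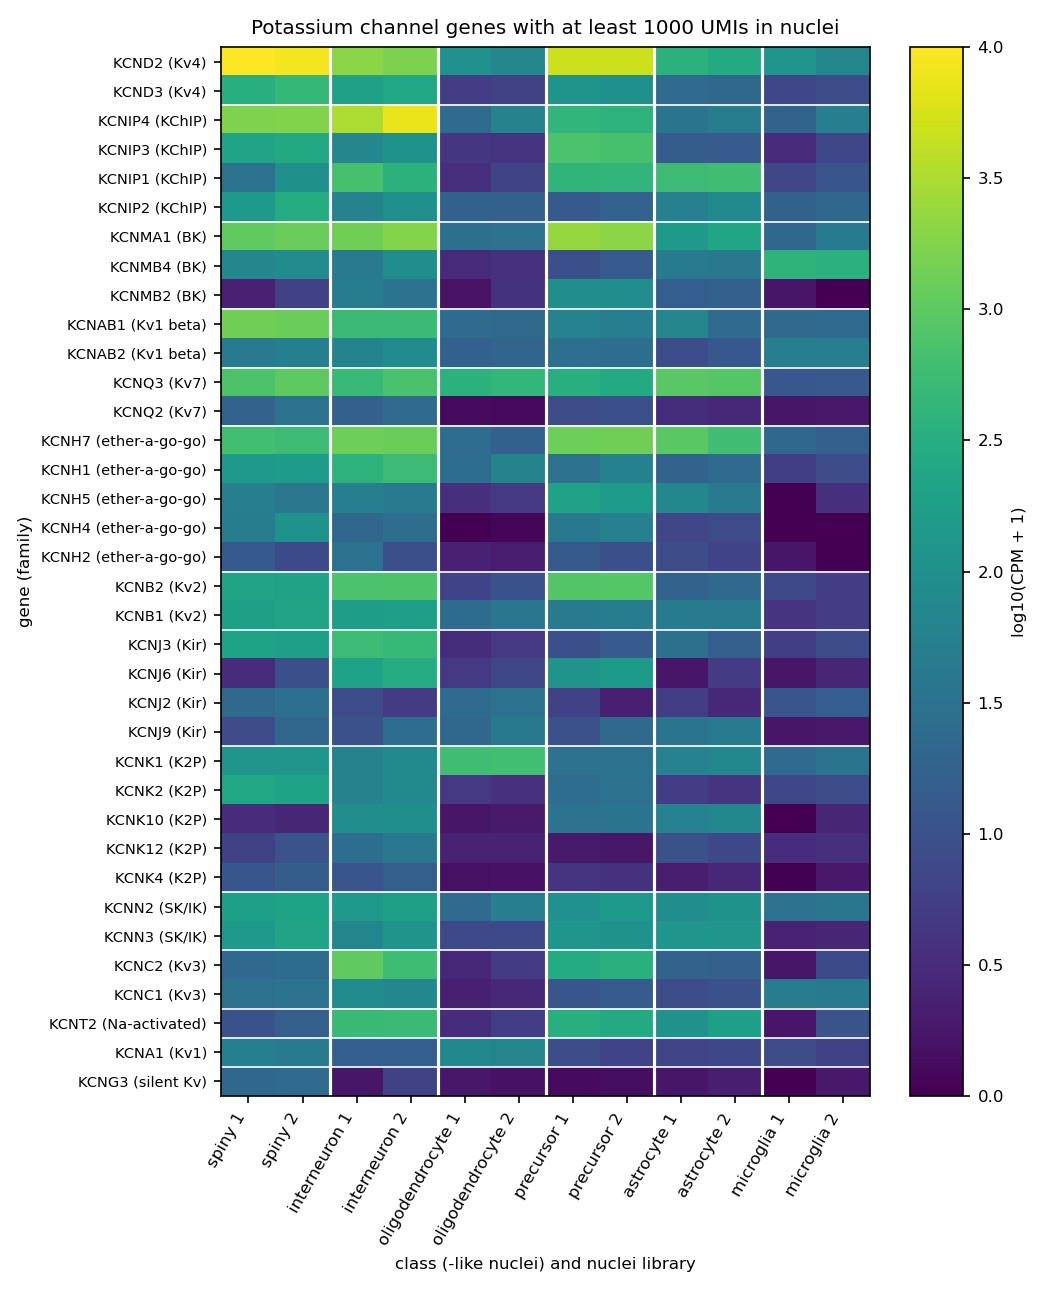
Heat map of the 36 KCN genes with at least 1000 UMIs in the nuclei libraries, with classes and libraries as columns and colour giving log10(CPM + 1), where CPM is UMIs per 1000000 UMIs of that class and library. Replicates of a class look alike for most genes; KCND2 is bright in spiny-like and precursor-like columns, KCNK1 in oligodendrocyte-like and KCNMB4 in microglia-like columns.

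KCND2 and KCND3, which encode pore subunits of Kv4, were highest in spiny-like nuclei. KCND2 stood at 9812 and 8587 CPM (UMIs of the gene per 1000000 UMIs of all genes in that class and library) in spiny-like, 4889.5 and 5032 in precursor-like and 2017 and 1619 in interneuron-like nuclei. It stood at 376 and 280.1 in astrocyte-like, 105 and 68.9 in oligodendrocyte-like, and 123 and 67.8 in microglia-like nuclei. No replicate of the first 3 classes overlapped with another class, while the last pair could not be ordered. The spiny-like level exceeded the mean of the other classes by 4.63 ± 0.12 on the log2 scale (edgeR adjusted p = 4.82e-12), and precursor-like nuclei were higher by 3.37 ± 0.12 (edgeR adjusted p = 1.05e-10). Errors of log2 fold changes are standard errors here and throughout. Thinned to 500 UMIs, 95.02% and 94.8% of spiny-like nuclei held a KCND2 UMI (98.5% and 98.6% before thinning), against 5.94% and 4.20% of oligodendrocyte-like nuclei (21.7% and 12.04%). KCND3, the second Kv4 subunit, followed in spiny-like (338 and 458 CPM), interneuron-like (190.4 and 245) and precursor-like nuclei (115 and 102). KCND1, the remaining one, was low everywhere and called higher in microglia-like nuclei (7.48 and 13.0 CPM, log2 2.55 ± 0.49, edgeR adjusted p = 0.000537), on 10 and 15 UMIs.

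Low values of abundant spiny genes in glia-like nuclei have a measured yardstick. KCND2 in oligodendrocyte-like nuclei was 1.07% and 0.802% of its spiny-like level, and in microglia-like nuclei 1.25% and 0.789%. The 9 spiny marker genes used for comparison ranged in oligodendrocyte-like nuclei from 1.06% (BCL11B) to 53.0% (TAC1) of their spiny-like level in replicate 1. A KCND2 level of this size in those classes is therefore not read as expression. In astrocyte-like nuclei KCND2 was 3.83% and 3.26% of its spiny-like level. The same markers ranged there from 1.62% and 1.40% (BCL11B) to 82.3% and 96.3% (MEIS2), with medians of 28.6% and 24.9%. A marker may be expressed by the class itself, so a level within this range does not decide whether KCND2 was expressed there. In interneuron-like nuclei KCND2 was 20.6% and 18.9%, beside marker medians of 20.7% and 19.8% and highest values of 72.2% (BCL11B) and 65.4% (RARB). Its level there was not set apart from that of the spiny markers, and its source was not tested.

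The KChIP genes, which encode calcium-binding proteins that bring Kv4 channels to the membrane, split by class. KCNIP4 stood at 3180.1 and 7645 CPM in interneuron-like, 1681 and 1726 in spiny-like and 435 and 385 in precursor-like nuclei, and at 17.9 to 60.9 in the other glia-like classes. Its interneuron-like replicates were far apart but both lay above every other class, and neuron-like nuclei exceeded glia-like nuclei by log2 5.71 ± 0.22 (edgeR adjusted p = 9.80e-11). KCNIP3 was highest in precursor-like nuclei at 724 and 673 CPM, against 216 and 273 in spiny-like and 69.4 and 110.2 in interneuron-like nuclei (precursor-like against the others log2 5.23 ± 0.14, edgeR adjusted p = 1.10e-11). KCNIP1 was 683 and 369.8 CPM in interneuron-like nuclei, a range that covers both the astrocyte-like (546 and 603) and the lower precursor-like values (409 and 428), and was 2.51 and 5.65 in oligodendrocyte-like nuclei. KCNIP2 was highest in spiny-like nuclei, at 139 and 302 CPM against 60.3 and 99.2 in interneuron-like nuclei, and was called lower in precursor-like nuclei (12.5 and 16.8).

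Within the interneuron-like class some KCN genes had different levels by cluster. The cluster marked by SST, NPY and NOS1 (21 and 30 nuclei) had KCNIP4 at 11.5 and 91.7 CPM, against 3809.9 and 8823 in the cluster marked by PTHLH, LHX6 and PVALB (108 and 156 nuclei). KCNJ3, which encodes a subunit of the G protein-gated inward rectifier, was 0 and 7.05 CPM in the first and 658 and 554 in the second. KCNB2, a Kv2 delayed-rectifier subunit, ran the other way, at 1623 and 1279.7 CPM in the first and 576 and 675 in the second. The remaining cluster of the class, led by ACHE and SLC5A7 (30 and 25 nuclei), was shallow, with medians of 627 and 740 UMIs. It had 0.221% and 0.145% of its UMIs on KCN genes and only 3 KCNIP4 UMIs in each library (127 and 132 CPM), and its KCNJ3 and KCNB2 levels rest on 0 to 2 UMIs. KCNC2, a Kv3 subunit, was 1254 and 1029 CPM in the SST cluster, 1043 and 512 in the PTHLH cluster and without a UMI in the ACHE cluster. These cluster values are a description with few nuclei and were not tested. Since the second cluster held most of the class, the class values mainly describe it.

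Calcium-activated channel genes had no common class. KCNMA1, the BK pore, stood at 2288 and 2041 CPM in precursor-like, 1343 and 1832 in interneuron-like and 1067 and 1231 in spiny-like nuclei, at 141 and 228 in astrocyte-like and at 21.7 to 44.3 in oligodendrocyte-like and microglia-like nuclei. Both precursor-like libraries were the highest, and the class exceeded the mean of the others by log2 3.61 ± 0.15 (edgeR adjusted p = 3.73e-10). KCNMB2, a BK beta subunit that inactivates the channel, was also highest there, at 92.5 and 89.7 CPM against 47.3 and 32.5 in interneuron-like nuclei. KCNMB4, the beta subunit best known from neurons, was highest in microglia-like nuclei instead, at 401 and 363 CPM against 70.7 and 85.2 in spiny-like and 43.3 and 90.1 in interneuron-like nuclei. That excess was log2 3.67 ± 0.16, or 12.7-fold over the mean of the others (edgeR adjusted p = 5.23e-10), while the BK pore gene was called lower in the same nuclei. After thinning to 500 UMIs, 15.4% and 15.0% of microglia-like nuclei held a KCNMB4 UMI, against 2.91% and 4.07% of spiny-like nuclei, although the unthinned shares ran the other way (41.1% and 32.7% against 67.5% and 63.2%). Of the small-conductance genes, KCNN2 was 181 and 211 CPM in spiny-like, an overlapping 143 and 187 in interneuron-like and 31.4 and 36.5 in microglia-like nuclei. KCNN3 was 142 and 215 CPM in spiny-like, 124 and 120.3 in astrocyte-like, 122 and 112 in precursor-like, 68.6 and 116 in interneuron-like and 1.495 and 1.74 in microglia-like nuclei.

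Delayed rectifiers and Kv3 subunits set interneuron-like and precursor-like nuclei apart from spiny-like nuclei. KCNC2 stood at 1067 and 576 CPM in interneuron-like and 289 and 351 in precursor-like nuclei, but at 22.1 and 24.8 in spiny-like nuclei. Interneuron-like nuclei exceeded the mean of the others by log2 5.66 ± 0.20 (edgeR adjusted p = 1.19e-10). KCNC1, a second Kv3 subunit, was 83.8 and 73.2 CPM in interneuron-like, 46.4 and 42.6 in microglia-like and 30.9 and 32.3 in spiny-like nuclei, and was called higher in microglia-like nuclei (log2 1.32 ± 0.16, edgeR adjusted p = 1.12e-05), a call that fell under the 2-fold limit at 0.89 when doublets were kept. KCNC4, of the same family, was highest in astrocyte-like nuclei at 12.4 and 11.2 CPM and at 0.0970 and 0.272 in spiny-like nuclei. KCNB2 stood at 861 and 895 CPM in precursor-like, 736 and 750.1 in interneuron-like and 217 and 198 in spiny-like nuclei, and the precursor-like excess was log2 4.55 ± 0.12 (edgeR adjusted p = 1.35e-11).

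The Kv1 genes had no common class. KCNAB1, a Kv1 beta subunit, was 1375 and 1245 CPM in spiny-like and 523 and 527 in interneuron-like nuclei and at most 64.6 in any glia-like library (spiny-like against the others log2 4.82 ± 0.15, edgeR adjusted p = 1.87e-11). KCNA1, a Kv1 pore subunit, was highest in oligodendrocyte-like nuclei at 72.9 and 68.3 CPM, with 52.4 and 41.5 in spiny-like and 14.8 and 14.6 in interneuron-like nuclei (oligodendrocyte-like against the others log2 2.78 ± 0.12, edgeR adjusted p = 5.96e-10). KCNA4, another pore subunit, was low and highest in spiny-like nuclei (9.16 and 10.0 CPM), and KCNA2 stayed at or under 6.17 CPM in every class. KCNRG, a regulator of Kv1 assembly, was 9.82 and 15.3 CPM in oligodendrocyte-like against 0.388 and 0.970 in spiny-like nuclei. Of the electrically silent subunits, which alter Kv2 channels, KCNG3 was 20.4 and 23.9 CPM in spiny-like nuclei and at most 5.26 in any other library, and KCNG2 was 65.8 and 56.5 CPM in microglia-like nuclei and at most 6.14 elsewhere (log2 3.70 ± 0.20, edgeR adjusted p = 3.56e-09). KCNS3 was highest in interneuron-like nuclei (6.86 and 4.57 CPM).

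Kv7 and ether-a-go-go genes reached into astrocytes. KCNQ3, a subunit of the M-current that damps repetitive firing, stood at 957 and 891 CPM in astrocyte-like and 766 and 1011 in spiny-like nuclei, ranges that overlap. It was 500.3 and 712 in interneuron-like, 376 and 437 in oligodendrocyte-like and 336 and 276 in precursor-like nuclei. Only microglia-like nuclei were nearly without it, at 11.2 and 12.2 CPM (log2 -6.06 ± 0.26, edgeR adjusted p = 3.67e-10). KCNH7, of the ERG subgroup, was 1309 and 1269.8 CPM in interneuron-like and 1295 and 1334 in precursor-like nuclei, which could not be ordered, then 941 and 587 in astrocyte-like and an overlapping 619.7 and 544 in spiny-like nuclei. KCNH4, of the ELK subgroup, was highest in spiny-like nuclei at 47.9 and 109.6 CPM, with an overlapping 40.0 and 54.5 in precursor-like nuclei. It had 0 and 1 UMI in oligodendrocyte-like and none in microglia-like nuclei, where the limit a count of 0 allows is 2.24 and 2.61 CPM. KCNH3 of the same subgroup and the K2P gene KCNK3 also had no UMI in microglia-like nuclei; KCNH3 was 8.80 and 11.6 CPM in spiny-like and KCNK3 was 12.6 and 7.32 in interneuron-like nuclei.

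Leak channels included the KCN gene with most UMIs in the oligodendrocyte-like class. KCNK1, a K2P channel, stood at 598 and 617 CPM in oligodendrocyte-like, 123 and 124 in spiny-like and 60.7 and 78.9 in interneuron-like nuclei, and at 23.9 to 71.4 in the other glia-like classes. Both oligodendrocyte-like libraries were far above the rest, by log2 3.59 ± 0.10 or 12.03-fold over the mean of the others (edgeR adjusted p = 1.02e-11). KCNK5, an acid-inhibited K2P channel, was at 17.8 and 16.7 CPM in oligodendrocyte-like and 22.2 and 25.4 in astrocyte-like nuclei but 0.267 and 0.155 in spiny-like nuclei. KCNK10, a mechanically gated member, was 93.2 and 96.5 CPM in interneuron-like and 58.7 and 72.5 in astrocyte-like nuclei, and 2.23 and 1.71 in spiny-like nuclei. Its relative KCNK2 was highest in spiny-like nuclei instead, with 243 and 207 CPM there, 61.4 and 76.8 in interneuron-like and 4.28 and 2.95 in astrocyte-like nuclei. KCNK9, an acid-sensitive member, was 73.3 and 56.9 CPM in interneuron-like nuclei and at most 4.49 in any other library, and KCNK12 was also highest there (26.7 and 39.3 CPM).

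The inward rectifiers analysed, which do not include KCNJ10, had no common class. KCNJ3 stood at 549 and 480.4 CPM in interneuron-like and 206 and 180.4 in spiny-like nuclei and at most 28.8 in any glia-like library (neuron-like against glia-like log2 5.54 ± 0.15, edgeR adjusted p = 4.21e-12). KCNJ6, its usual partner in G protein-gated channels, was 209.9 and 294 CPM in interneuron-like and 117 and 148 in precursor-like nuclei but 2.25 and 8.61 in spiny-like nuclei. KCNJ2, a strong rectifier, was 24.2 and 31.3 CPM in oligodendrocyte-like and 22.8 and 28.4 in spiny-like nuclei, which overlap, and 7.22 and 3.89 in interneuron-like nuclei. KCNJ13, a weak rectifier, was low in all classes, at most 16.3 CPM. The sodium-activated channel gene KCNT2 was 516 and 529 CPM in interneuron-like, 327 and 274 in precursor-like and 107 and 181 in astrocyte-like nuclei, and 8.97 and 15.2 in spiny-like nuclei.

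Spiny-like and interneuron-like nuclei were next compared directly. Of the tested KCN genes, 13 were higher in spiny-like (8.26% of all genes) and 17 in interneuron-like nuclei (12.4%, 20.6% either way), with a median log2 difference of -0.21 beside -0.00 over all genes. On the spiny side stood KCNG3 (log2 3.00 ± 0.39), KCNA4 (2.89 ± 0.41), KCND2 (2.59 ± 0.19, 6.01-fold, edgeR adjusted p = 3.87e-07), KCNJ2 (2.51 ± 0.35) and KCNH4 (1.95 ± 0.21). On the interneuron side stood KCNJ6 (log2 -5.47 ± 0.30, edgeR adjusted p = 2.93e-08), KCNK10 (-5.30 ± 0.23), KCNT2 (-5.24 ± 0.31), KCNK9 (-5.24 ± 0.29) and KCNC2 (-4.87 ± 0.31). Both KCNIP4 (-1.29 ± 0.34) and KCNB2 (-1.59 ± 0.17) were also higher in interneuron-like nuclei. KCNMA1 (-0.21), KCNH7 (-0.92), KCNQ3 (0.79) and KCNN2 (0.50) were not called at the 2-fold limit.

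**Figure D3:**
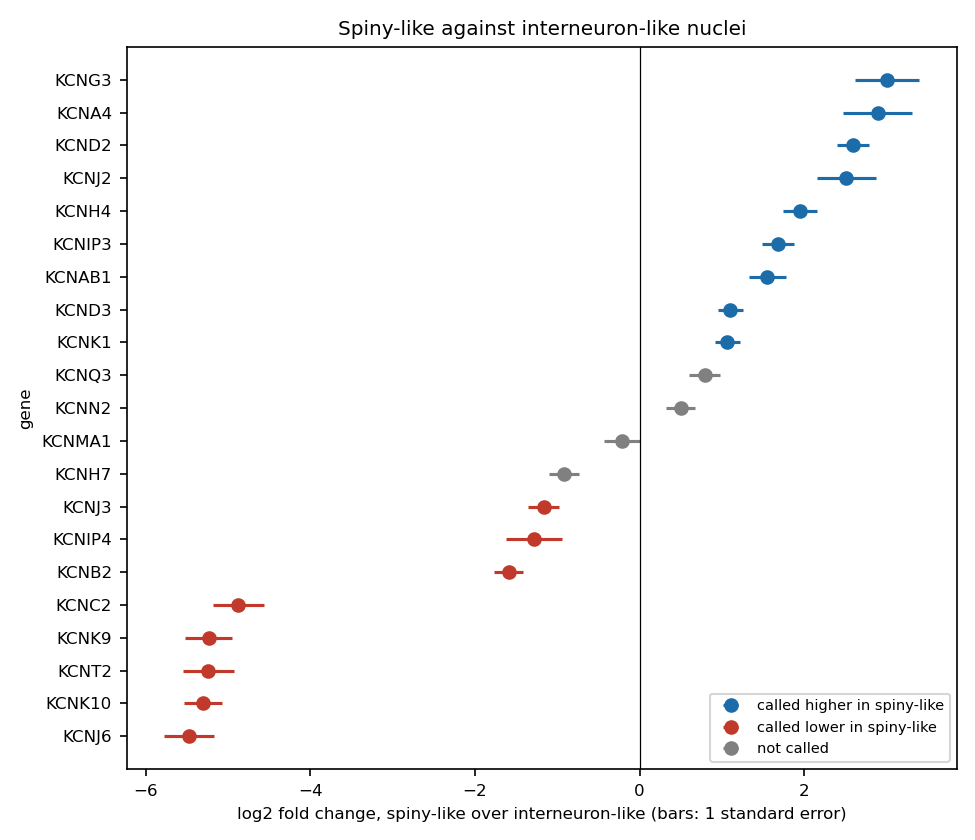
Log2 fold change of spiny-like over interneuron-like nuclei for 21 KCN genes from edgeR, with bars of 1 standard error. Genes right of 0, such as KCNG3 at 3.00 and KCND2 at 2.59, were higher in spiny-like nuclei, and those left of it, down to KCNJ6 at -5.47, in interneuron-like nuclei.

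The low KCNT2 and KCNJ6 levels of spiny-like nuclei did not hold in all their clusters. In the spiny-like cluster of low depth (143 and 134 nuclei, median 1573 UMIs) KCNT2 was 145 and 473 CPM and KCNJ6 was 64.6 and 479, against 1.66 to 15.6 and 1.66 to 4.03 in the D1-type and D2-type clusters. KCNIP4 in that cluster was 4736 and 10908 CPM, a range that overlaps with the PTHLH cluster. When KCN genes were allowed in the clustering, the low-depth spiny-like cluster grew to 258 and 232 nuclei, and the difference of KCNT2 in spiny-like nuclei against the other classes moved from log2 -1.78 to -0.01 and was no longer called.

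D1-type and D2-type spiny neurons, which form the direct and indirect output pathways, differed in 2 KCN genes. The D1-type cluster (551 and 637 nuclei) was named from TAC1, PDYN, EBF1 and SLC35D3 and the D2-type cluster (612 and 507) from DRD2, ADORA2A, PENK, SP9 and GRIK3. Of 55 KCN genes tested among 13511 genes, 1 was higher in D1-type (0.237% of all genes) and 1 in D2-type nuclei (0.289%, and 0.525% in either direction). KCNB2 was 330.3 and 285 CPM in D1-type and 111 and 93.9 in D2-type nuclei, with no overlap (log2 1.59 ± 0.18, 3.02-fold, edgeR adjusted p = 0.000305). KCNT2 was 1.66 and 4.97 CPM in D1-type and 13.4 and 15.6 in D2-type nuclei (log2 -2.23 ± 0.36, edgeR adjusted p = 0.00814). The KCNT2 call was lost without the library block (edgeR adjusted p = 0.105) and without replicate 1 (0.334), and it was lost when doublets were kept (0.179), where the difference was -0.99. With replicate 1 left out, each type is 1 library, assumed to vary like the other classes. The KCNB2 call was kept without the library block and with doublets kept. KCND2, at 10076 and 8747 CPM in D1-type and 9582 and 8490.3 in D2-type nuclei, overlapped between the types, as did KCNMA1 (log2 -0.00).

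**Figure D4:**
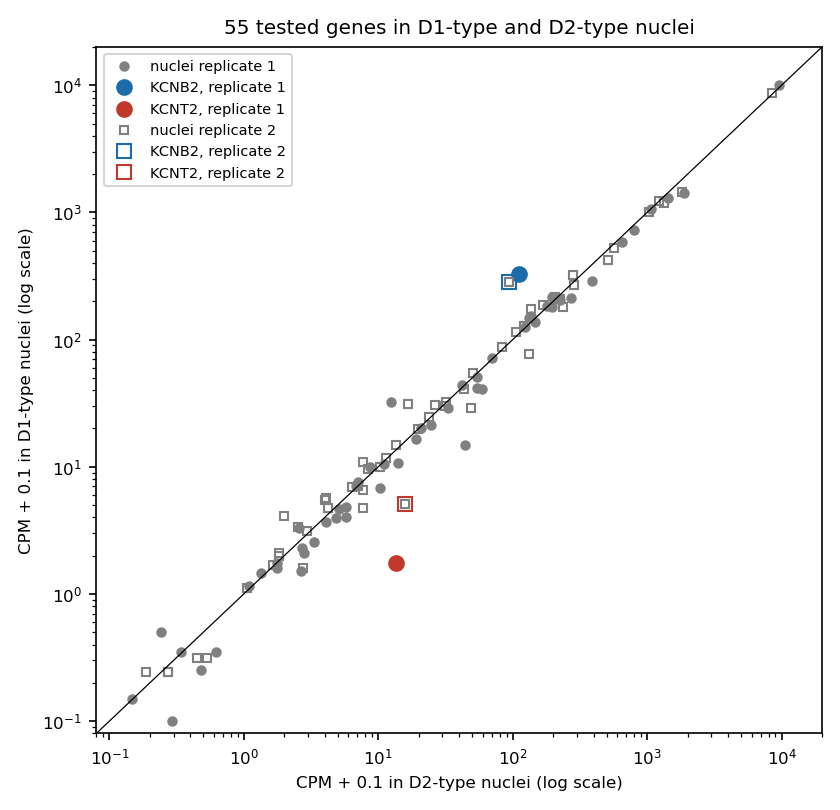
CPM + 0.1 of 55 tested KCN genes in D2-type (x axis) and D1-type nuclei (y axis), both on log scales. Most genes lie near the diagonal; KCNB2 lies above it at 330.3 and 285 against 111 and 93.9 CPM, and KCNT2 below it at 1.66 and 4.97 against 13.4 and 15.6 CPM.

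The nuclei libraries differed from each other in a few genes. KCNJ9, a G protein-gated rectifier subunit, was 10.8 and 24.3 CPM over all nuclei, and the difference appeared within oligodendrocyte-like (21.5 and 40.8), spiny-like (7.27 and 19.7) and precursor-like nuclei (8.96 and 22.9). KCNH4 was 35.0 and 68.3 CPM and KCNH2, an ERG channel, 11.4 and 5.71 CPM. With 1 library per pool, these differences have no replicate check.

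Other genes of the same pathway were given by a list of channel partners and of carriers and pacemaker channels that shape potassium flux. Of 22 listed genes in the gene list, 18 were tested, and 13 were higher and 2 lower in neuron-like than in glia-like nuclei (20% and 14.2% of all genes). ADAM23, a membrane partner of Kv1 complexes, differed by log2 4.01 ± 0.12, the Kv4 partner DPP10 by 3.31 ± 0.13 and the pacemaker channel HCN4 by 3.14 ± 0.60. ATP1B2, a beta subunit of the sodium-potassium pump, was among those lower, by log2 -2.27 ± 0.65.

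Whole cells held few of these RNAs. The 88 genes took 74 and 2306 UMIs in the whole-cell libraries, 0.0587% and 0.0918% of UMIs outside the mitochondrial genes, and 28 of them had none in either. Of 62 KCN genes tested among 15781 genes, 33 were higher in nuclei (29.8% of all genes) and 6 lower (22.3%, 52.1% either way), with a median log2 difference of 2.95 beside 0.61 over all genes. Scaled by library size alone, with mitochondrial UMIs counted in, the median over all genes moved to 3.66. On that scale 53 KCN genes were higher and 0 lower, beside 79.0% and 2.87% of all genes. The calls below are relative to the composition-scaled median.

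KCND2 reached 6723 and 5382 CPM with nuclei, here taken over UMIs outside the mitochondrial genes, against 7.94 and 34.6 with whole cells, a ratio of 185 over the pooled libraries (log2 7.66 ± 0.72, edgeR adjusted p = 4.88e-10). KCNIP4 reached 1453 and 1972 CPM with nuclei, against 0 and 3 UMIs in all with whole cells, a ratio of 1469.8 with an exact counting interval of 503 to 7127. KCNAB1, at 918 and 765 CPM with nuclei against 31.8 and 198 with whole cells, had a pooled ratio of 4.50. The pooled ratios of KCND2 and KCNAB1 mainly describe whole-cell replicate 2, which held 87 and 497 UMIs of them against 1 and 4 in replicate 1; without replicate 2 the differences were log2 9.98 for KCND2 and 5.13 for KCNAB1 (2.57 with both libraries). KCNK10, KCNK9, KCNK5 and KCNK3 had no UMI in whole cells and were at least 14.1-fold, 4.82-fold, 3.92-fold and 2.32-fold higher in nuclei against a floor of 1.14 CPM over both whole-cell libraries. All 4 calls were lost without whole-cell replicate 2 (edgeR adjusted p from 0.0713 for KCNK10 to 0.608 for KCNK3), but the single whole-cell library left is too shallow for a count of 0 to show these levels, so that loss says nothing about the difference. Intervals and floors cover counting error only.

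The 6 KCN genes lower in nuclei were KCNT1, KCNF1, KCNJ4, KCNH2, KCNA4 and KCNG2. KCNH2 was 11.5 and 5.76 CPM with nuclei against 39.7 and 83.2 with whole cells (log2 -3.11 ± 0.46, edgeR adjusted p = 1.03e-06). KCNA4 was 6.21 and 5.84 CPM with nuclei against 15.9 and 27.9 with whole cells (log2 -2.21 ± 0.46). Library-size scaling moved KCNA4 to 0.89 and KCNG2 from -2.15 to 0.98, along with the median over all genes given above. KCNH2 moved to -0.05, and none of the 6 genes was called lower under that scaling, so these directions are only relative to that median. Without whole-cell replicate 2, KCNH2 (-1.78, edgeR adjusted p = 0.0843) and KCNA4 (edgeR adjusted p = 0.647) were no longer called; the whole-cell library left was then assumed to vary like the nuclei libraries. KCNT1, a sodium-activated channel, had raw totals of 55 and 35 UMIs from the nuclei and 6 and 17 from the far shallower whole-cell libraries (log2 -4.27 ± 0.79). KCNF1, a silent subunit, and KCNJ4, an inward rectifier, had 0 UMIs in whole-cell replicate 1 and 21 and 8 in replicate 2, so both calls rest on that library. Without it the whole-cell arm has 0 UMIs of either gene and the fold shows no direction. Whole cells and nuclei were counted with different versions of Cell Ranger and their cell types were not resolved in the whole cells, so version, cell make-up and amount of RNA per cell cannot be told apart from the preparation here.

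**Figure D5:**
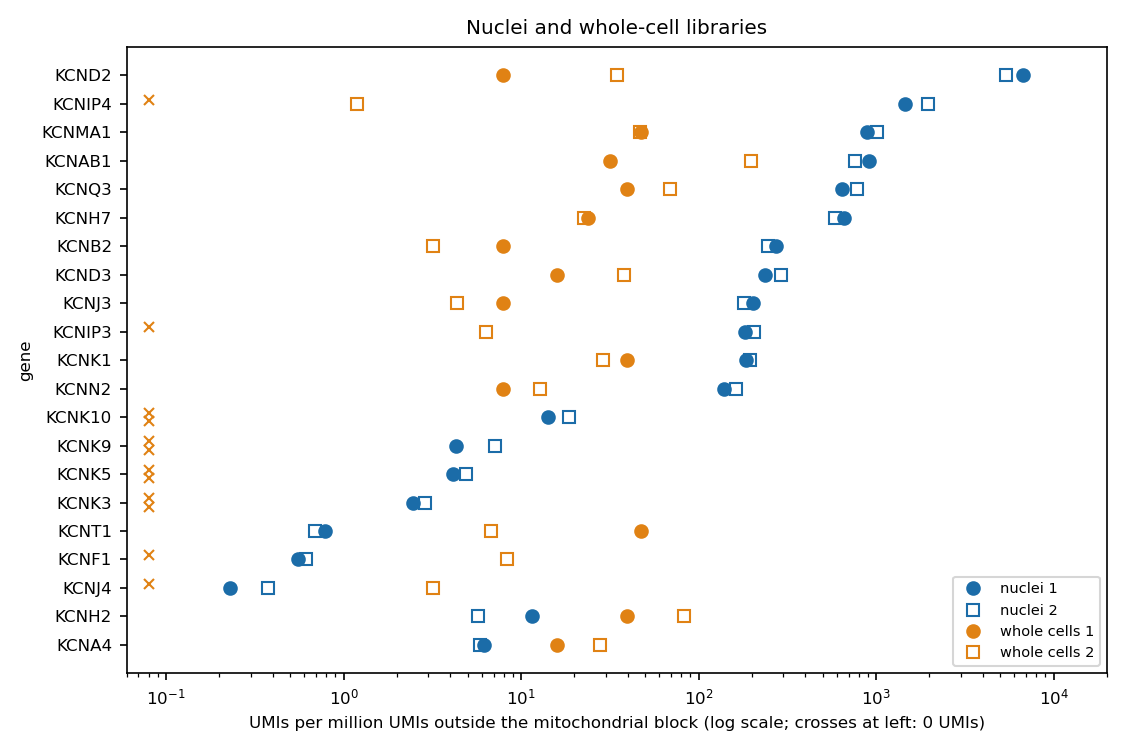
CPM over UMIs outside the mitochondrial genes on a log axis for 21 KCN genes, with 1 point for each whole-cell and nuclei library and crosses for libraries with 0 UMIs. Nuclei points lie above whole-cell points for the 12 genes with most UMIs, and below them for KCNT1, KCNH2 and KCNA4.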

How the data were processed

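UMI counts per gene and barcode were deposited by the authors, made with Cell Ranger 6.0.1 for whole cells and 7.0.0 for nuclei, per the file headers. The genome build, annotation and use of intron reads are not given in the sources used here. The KCN genes and all lists were chosen with earlier results of these data known.

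Nuclei were kept from 200 detected genes upward if mitochondrial UMIs made up no more than 5%. Scrublet scores marked 390 of 8700 and 0 of 8388 nuclei as doublets, so the caller had not worked in replicate 2, and the 8% with the highest scores (696 and 671) were removed instead. Clustering (scanpy 1.11.5, Python 3.11.15) used 2000 variable genes without KCN genes, 30 principal components, 15 neighbours and resolution 0.5. A cluster was named with at least 3 fixed markers raised 2-fold; clusters with over 90% of nuclei from 1 library stayed unnamed. D1-type and D2-type come from this clustering, because a second clustering of neuron-like nuclei named no D1-type cluster.

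UMIs were summed per class and library, in classes with at least 50 nuclei in each, and tested with edgeR 4.0.16 (R 4.3.3) quasi-likelihood, TMM scaling, filterByExpr and Benjamini-Hochberg adjustment over all genes tested. Nuclei are not replicates, and a class against the others is the log2 level minus the mean log2 level of the other classes. Pools were matched by the labels (the same sheep by the titles), so the library was a block between classes. Deviations of same-pool nuclei and whole-cell libraries correlated at -0.061 over 1765 genes. Whole libraries were compared over all barcodes without a block. In class contrasts, p-values measure how far class differences varied between the 2 libraries, after the block took up their common difference. For whole libraries they measure the spread between the 2 libraries of each group. On simulated counts for spiny-like nuclei (13009 genes), 39.1% of 2-fold, 100% of 4-fold and 100% of 16-fold changes were called, and 0 of 11792 unchanged genes.

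Genes named are the 12 with most UMIs, up to 5 called per direction and contrast with the largest fold (at least 100 UMIs, same direction in both libraries; for whole libraries without these limits), and the 3 that differed most between nuclei libraries; KCNG2 among the genes lower in nuclei, the genes with no UMI and the values of single clusters were added after they were seen. Alternatives were DESeq2 1.42.0, library-size scaling, filters, clustering settings and leaving out libraries. A few genes that the naming rule selects are not reported here.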

Additional observations from a re-analysis of the deposited data

How the results depend on the processing

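Of 109 alternative counts of called KCN genes in either direction, 105 were within 1.5 times the reported count. The other 4 were those between D1-type and D2-type nuclei, where 2 genes became 1 with no replicate block, 1 with the doublets above Scrublet's own threshold removed, and 4 with no filter; leaving out 1 library gave 1 to 2. Counted by direction, 16 of 218 were outside that range, 8 of them between D1-type and D2-type nuclei. Of the rest, with doublets kept the lower genes became 5 (10.2% of all genes) in interneuron-like and 23 (12.7%) in microglia-like nuclei, and the higher genes 6 (13.4%) in astrocyte-like nuclei. The lower genes became 3 (15.1%) in spiny-like nuclei with KCN genes in the clustering and 1 (7.55%) in interneuron-like nuclei without replicate 2. The library-size counts of nuclei against whole cells and 1 lower gene (8.32%) without whole-cell replicate 2 complete them. Of 957 alternative values of the named fold changes, 903 stayed past the threshold, 51 did not and 3 changed sign: KCNF1 (7.55) and KCNJ4 (6.58) without whole-cell replicate 2, and KCNA4 (0.89) under library size only. None of these shows a turn of direction: KCNF1 and KCNJ4 were then set against a library with 0 UMIs of them, and library-size scaling moved the median over all genes from 0.61 to 3.66, with KCNG2 (-2.15 to 0.98, not counted above) moving alike. The values with 1 library left out ran from -4.0 to 7.55 for KCNF1 and from -3.51 to 6.58 for KCNJ4.

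Between nuclei and whole cells, the replicate block by sheep pool called 36 KCN genes (31 higher, 5 lower; 34.7% of all genes either way) and DESeq2 34 (39.1%). With no replicate block between classes, the calls of KCNT2 (D1-type against D2-type), KCNJ13 (interneuron-like) and KCNA2 (astrocyte-like) were lost and no other named call. Leaving out whole-cell replicate 2 gave 26 (25 higher, 1 lower; 27.0% of all genes). In microglia-like nuclei the 42 calls became 28 with doublets kept and 29 at Scrublet's own threshold, while calls over all genes went from 40.8% to 27.1% and 27.9%. Library-size scaling moved the median over all genes in class contrasts to between -0.39 (spiny-like) and 0.35 (microglia-like), with 14.8% and 22.5% of all genes higher and lower in spiny-like nuclei, 26.6% and 18.1% in microglia-like, 16.7% and 19.4% in neuron-like and 5.92% and 15.9% in spiny-like against interneuron-like nuclei. Leave-one-out was not run for neuron-like against glia-like nuclei. Depth limits microglia-like values most: 3 UMIs are 2.24 and 2.61 CPM there.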

Other observations

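Clusters outside the 6 classes also held KCN genes. An unnamed cluster led by FOXP2 and LIX1 (116 and 98 nuclei) had 1.97% and 2.12% of its UMIs on KCN genes, with KCND2 at 5107 and 5623 CPM and KCNIP4 at 6331 and 7762 CPM. An unnamed cluster led by DLX5 and ADARB2 (471 and 255 nuclei) had 0.966% and 0.776%, with KCNH7 at 3184 and 2950.0 CPM and KCNIP1 at 917 and 913 CPM. Its KCNH7 level lay above both libraries of each of the 6 classes. Another, led by SLC17A6 and TBR1, came almost wholly from 1 library (169 and 1 nuclei) and had 0.898% on KCN genes in replicate 1. These are descriptions of clusters without a test.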
